A study of Mus musculus with 8 samples.

Results

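The genes of antigen presentation by class I molecules of the major histocompatibility complex (MHC) were compared between naive corneas of 2 inbred mouse strains, BALB/cN and C57BL/6N. The genes were chosen by name. They were the class I heavy chain genes H2-K, H2-D1, H2-Q, H2-T and H2-M on chromosome 17, with Gm11127, and 12 genes whose products supply, load or control class I molecules. Of 44 genes of these names, 9 H2-M genes were listed at 0 in all corneas, which left 35 of the 31314 genes that were not constant, 23 heavy chain genes and 12 others. The 29 genes with a mean value of at least 0 were tested. The other 6 (H2-M2, H2-M6-ps, H2-M10.2, H2-Q3, H2-Q10 and H2-T3) had between 0 and 5 reads in any cornea. H2-L, a class I gene of BALB/c mice, was not among the genes listed and so was not analysed here. Whether its reads in BALB/cN corneas were lost or counted for other genes was not tested.

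Total RNA of 4 corneas of each strain had been sequenced, from male mice that were neither wounded nor treated, and their age was not given for these samples in the sources used here. The labels give the strains as Balb/c and C57BL/6N, and call the tissue naive cornea. BALB/c mice carry the MHC haplotype H2d and C57BL/6 mice H2b, so the genes on chromosome 17 differ in sequence as well as in any level, and the strains also differ over the rest of the genome. The labels do not say that the 4 corneas of a strain came from 4 animals, so p-values measure the spread between these samples. Values are rlog values, which are on a log2 scale, are normalized for library size and pull weakly expressed genes towards their mean, so that a difference in rlog value understates their fold change. Differences are BALB/cN minus C57BL/6N. A gene was called at a limma adjusted p of 0.01 or less. Reads per gene, recovered by inverting the transformation, summed to between 36707621 and 41151509 in BALB/cN and between 29679590 and 36984233 in C57BL/6N corneas, and folds are ratios of mean normalized reads.

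A class I molecule is a heavy chain held together with the light chain B2m around a peptide. Proteasomes cut proteins in the cytosol, the transporter of Tap1 and Tap2 carries the peptides into the endoplasmic reticulum, Erap1 trims them, and tapasin (Tapbp), calreticulin (Calr) and Pdia3 hold the empty molecule at the transporter until a peptide fits. The classical heavy chains H2-K1 and H2-D1 show these peptides to CD8 T cells, while the many H2-Q, H2-T and H2-M genes encode nonclassical heavy chains, several of which are read by natural killer cells or by unconventional T cells. Interferons raise most of the pathway, and Nlrc5 is the transactivator of class I promoters. The cornea is known for its low class I display, and BALB/c and C57BL/6 are a standard pair of MHC-mismatched strains in corneal grafting.

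The heavy chain genes resemble each other so closely that a read can fit several of them, and a stretch of exon 4 (exon 5 in H2-T22 and H2-T10), which encodes the domain next to the membrane, is shown for that reason. The sequences are 100 bases of annotated transcripts on GRCm38, the genome of C57BL/6J, the stretch of H2-D1 coding sequence found without a mismatch in the largest number of heavy chain genes. Lower case letters are the bases of H2-D1 and capitals are bases that differ from it.
H2-D1 (chr17:35265846-35265945, plus strand): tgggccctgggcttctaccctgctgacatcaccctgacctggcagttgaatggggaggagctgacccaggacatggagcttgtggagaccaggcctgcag
H2-T23 (chr17:36030936-36031035, minus strand): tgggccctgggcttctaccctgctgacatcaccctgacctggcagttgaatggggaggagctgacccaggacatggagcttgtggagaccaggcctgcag
H2-K1 (chr17:33997399-33997498, minus strand): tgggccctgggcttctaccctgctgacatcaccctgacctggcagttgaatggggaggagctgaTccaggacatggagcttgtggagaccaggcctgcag
H2-Q4 (chr17:35382920-35383019, plus strand): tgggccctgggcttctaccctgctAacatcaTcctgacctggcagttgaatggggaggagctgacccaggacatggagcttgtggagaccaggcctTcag
H2-T24 (chr17:36014914-36015013, minus strand): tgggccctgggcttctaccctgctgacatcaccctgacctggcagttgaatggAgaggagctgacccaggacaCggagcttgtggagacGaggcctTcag
H2-M3 (chr17:37272331-37272430, plus strand): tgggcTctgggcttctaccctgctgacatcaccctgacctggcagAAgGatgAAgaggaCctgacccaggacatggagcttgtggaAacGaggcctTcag

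H2-D1, H2-T23, H2-T22, H2-Q1, Gm11127 and the pseudogene H2-K2 were identical over these 100 bases. H2-K1 differed at 1 base, H2-Q4 at 3, H2-T24 at 4, H2-T10 at 8 and H2-M3 at 10. Over whole transcripts the genes were less alike. The share of all windows of 100 bases that also occur in transcripts of another gene, on either strand, was 0.957% in H2-K1, 3.59% in H2-D1, 3.15% in H2-T23 and 0% in H2-T24, H2-M3, B2m and Nlrc5, but 49.9% in Gm11127, 31.5% in H2-T22 and 28.1% in H2-T10. These shares were measured on the H2b reference and were not measured for the H2d sequences.

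Of the 29 genes tested, 11 (37.9%) were called, all higher in BALB/cN corneas. Over all 25402 genes tested 5.74% were called, 2.83% higher and 2.91% lower in BALB/cN, and 7.17% of protein-coding genes were called. The genes called were 6 heavy chain genes (H2-T24, Gm11127, H2-T-ps, H2-Q4, H2-T10 and H2-T23), the light chain B2m, Tap1, Psmb9, Tapbp and Nlrc5. The median difference over the 29 was 0.31, against 0.01 over all genes, and 24 of the 29 differences were above 0, as were 52.8% of all genes tested. The strains did not overlap in 16 of the 29 genes, against 18.3% of all genes. They were 14 genes higher in BALB/cN, against 8.75% of all genes, and 2 lower (H2-K2 and Calr), against 9.58%. When p-values were recalibrated to an empirical null (SD 1.75), no gene at all kept an adjusted p of 0.01 or less, with 1478 genes and all 11 called genes of the set at an unadjusted p under 0.05 and adjusted p-values of 0.402 to 0.765 for those 11. Under every setting tried but that null, 6 of the 11 stayed called, namely H2-T24, Gm11127, H2-T-ps, H2-Q4, H2-T10 and Tap1.

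**Figure D1:**
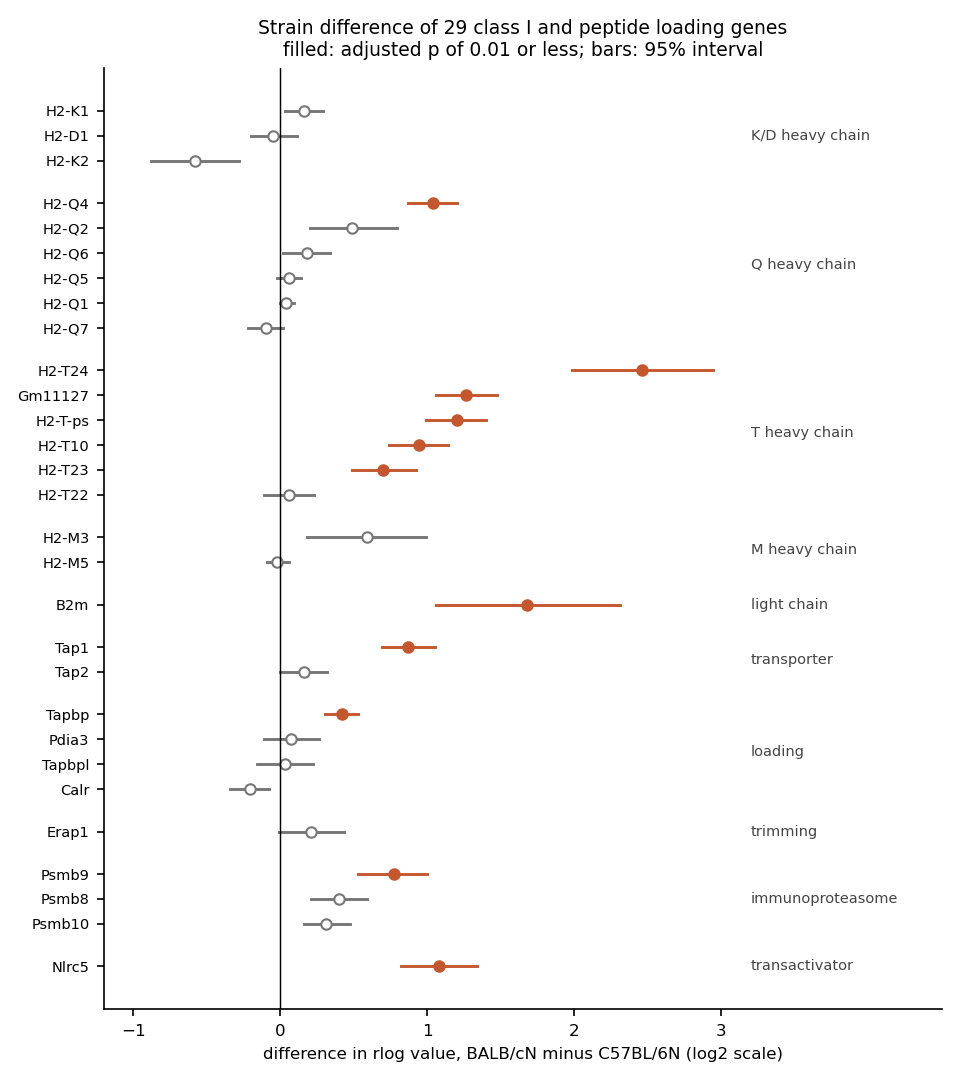
Difference in rlog value (BALB/cN minus C57BL/6N, log2 scale, x axis) of the 29 genes tested, grouped by role, with the 95% interval as a bar and filled points for the 11 genes called. All filled points lie right of 0, from 0.42 for Tapbp to 2.46 for H2-T24, while H2-K1, H2-D1, Tap2 and Pdia3 lie within 0.16 of 0.

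The classical heavy chains, which made up most of the class I message, were not called in either direction. H2-K1 (chr17:33996017-34000347, minus strand) had rlog values of 12.41, 12.40, 12.20 and 12.39 in the BALB/cN corneas and 12.14, 12.20, 12.22 and 12.20 in the C57BL/6N corneas, a difference of 0.16 (95% interval 0.03 to 0.29, adjusted p = 0.118). H2-D1 (chr17:35262730-35267499, plus strand) had 12.08, 12.12, 12.02 and 12.16 against 12.03, 12.02, 12.23 and 12.27, a difference of -0.05 (95% interval -0.20 to 0.11, adjusted p = 0.729). The strains overlapped in both genes, and the intervals end at 0.29 and 0.11 above 0. Whether the H2-D1 values of BALB/cN corneas include reads of the unlisted H2-L was not tested. With the leukocyte markers as a covariate, or without the 3 corneas low in keratocyte markers (BALB/cN 2 and C57BL/6N 3 and 4), the difference of H2-D1 turned to 0.052 and 0.056, neither of them called. The pseudogene H2-K2 went the other way from most of the set, with 59, 58, 63 and 68 reads in BALB/cN and 77, 136, 150 and 133 in C57BL/6N. No BALB/cN cornea reached the lowest C57BL/6N cornea, at a difference of -0.58 that missed the threshold (adjusted p = 0.0211). Of the refits at that threshold, only the one without C57BL/6N cornea 1 called it (-0.70, adjusted p = 0.00352). Its log2 read ratio was -1.27, and that of its sum with the 6 other genes of the segment that share windows with it was 0.14. H2-D1 held most of that sum, 4393 of 6682 normalized reads in BALB/cN and 4607 of 6059 in C57BL/6N corneas. The sum therefore cannot show the ratio of H2-K2. None of the 3 tested H2-K and H2-D genes was called by limma or by voom, and 2 of them had an unadjusted p under 0.05 in each.

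Of the 6 nonclassical H2-T genes tested, 5 were called. H2-T24 had the largest difference of the set in rlog value, while Gm11127 had the larger fold in reads. H2-T24 (chr17:36005695-36020560, minus strand) had 753, 571, 240 and 609 reads in the BALB/cN corneas and 29, 18, 10 and 23 in the C57BL/6N corneas, a 23.2-fold difference in normalized reads and 2.46 ± 0.214 (SE) in rlog value (adjusted p = 6.92e-05). Every BALB/cN cornea was far above every C57BL/6N cornea, although BALB/cN cornea 3 stood well below the other 3. Its transcripts share no window with another annotated gene. Without any 1 cornea the difference lay between 2.34 and 2.70 and stayed called.

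Gm11127 (chr17:36055816-36058371, minus strand), annotated as protein-coding, had 106, 128, 76 and 77 reads in BALB/cN and 0 in all 4 C57BL/6N corneas. It was at least 26.8-fold higher, with 3 reads set for each C57BL/6N library (rlog difference 1.26 ± 0.0898, adjusted p = 1.93e-05). A sum with genes of the segment that share its windows, heavy chain genes or others on its strand, had a log2 read ratio of 0.15. H2-D1 held most of that sum, 4393 of 6726 normalized reads in BALB/cN and 4607 of 6060 in C57BL/6N corneas. The sum therefore cannot show the ratio of Gm11127, and it left out Gm6034 and Gm19684 on the other strand. The pseudogene H2-T-ps (chr17:36109234-36111658, minus strand) had 132, 140, 100 and 82 reads against 5, 4, 6 and 7, a log2 ratio of 4.09 in normalized reads (1.20 ± 0.0921, adjusted p = 3.23e-05). In both genes every C57BL/6N cornea had at most 7 reads and every BALB/cN cornea at least 76. Each shares windows with neighbours, 49.9% in Gm11127 (most with Gm7030, Gm6034 and Gm19684) and 5.37% in H2-T-ps. The annotated pseudogenes H2-Bl and Gm10499, which lie in the same stretch of chromosome 17 and are not among the 35, were called in the same direction, with 28 to 41 and 28 to 71 reads in BALB/cN corneas and at most 3 and 1 in C57BL/6N corneas (differences of 0.52 and 0.63).

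H2-T23 (chr17:36029773-36032855, minus strand) encodes the heavy chain that shows leader peptides of other class I molecules to the inhibitory NKG2A receptor of natural killer cells. It had 2072, 2026, 1454 and 1611 reads in BALB/cN against 754, 683, 774 and 849 in C57BL/6N corneas, a 1.95-fold difference (0.70 ± 0.0957, adjusted p = 0.00128). H2-T10 (chr17:36115876-36121465, minus strand), annotated as a polymorphic pseudogene, had 246, 204, 177 and 162 reads against 52, 38, 41 and 44, which was 3.76-fold (0.94 ± 0.0875, adjusted p = 0.000112). H2-T22, its close relative and like it a ligand of gamma delta T cells, was not called, with 600, 639, 465 and 517 reads against 468, 431, 422 and 419 (0.06, 95% interval -0.11 to 0.23). H2-T10 shares 261 windows of H2-T22 and the antisense gene A930015D03Rik shares 905. A930015D03Rik was itself called higher in BALB/cN (0.94, adjusted p = 0.00113). Summed over both H2-T10 and H2-T22, normalized reads were 687 ± 62.4 in BALB/cN and 523 ± 51.7 in C57BL/6N corneas (SD, n = 4), a log2 ratio of 0.39, against 1.91 for H2-T10 alone. H2-T22 held most of that sum, 507 of 687 normalized reads in BALB/cN and 475 of 523 in C57BL/6N corneas. The sum therefore says little about H2-T10. It also left out BC023719, which holds 832 of the 1040 shared windows of H2-T10.

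Among the H2-Q genes, which lie between H2-D1 and the H2-T genes, 1 of 6 was called. H2-Q4 (chr17:35379617-35385290, plus strand) had rlog values of 10.28, 10.31, 10.02 and 10.25 in BALB/cN and 9.19, 9.12, 9.24 and 9.18 in C57BL/6N corneas, a 2.74-fold difference (1.04 ± 0.0737, adjusted p = 1.96e-05). The 2 strains were well apart and the spread within each was small. Of its windows, 11.8% also lie in the antisense gene Gm11131, which had 64 to 111 reads in BALB/cN and 40 to 87 in C57BL/6N corneas and was not called. H2-Q2 had 34, 37, 10 and 66 reads against 1, 5, 4 and 0, with no overlap, but missed the threshold (0.49, adjusted p = 0.0411). H2-Q6 had 17 to 36 reads against 7 to 16. H2-Q1, H2-Q5 and H2-Q7 had 0 to 16 reads in any cornea and were not called.

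H2-M3, which presents formylated bacterial peptides, had 118, 58, 88 and 135 reads in BALB/cN and 56, 51, 10 and 13 in C57BL/6N corneas. The strains overlapped in rlog value and the gene was not called, by limma or voom (0.59, 95% interval 0.18 to 0.99, adjusted p = 0.0724). H2-M5 had 2 to 6 reads in every cornea of either strain.

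Added up, all 23 heavy chain genes gave 14385 ± 1278 normalized reads in BALB/cN and 11331 ± 811 in C57BL/6N corneas (SD, n = 4), or 1.27-fold. H2-K1 and H2-D1 together gave 9782 ± 688 and 9239 ± 647, or 1.06-fold, and the strains overlapped. The other 21 genes gave 4604 ± 612 and 2092 ± 203, or 2.20-fold, with the lowest BALB/cN cornea at 3713 and the highest C57BL/6N cornea at 2360. No test was run on these sums, and they hold no entry for H2-L of BALB/c mice. H2-D1 held 30.6% ± 1.70 of the heavy chain reads in BALB/cN and 40.6% ± 2.13 in C57BL/6N corneas, and H2-K1 37.5% ± 0.127 and 41.0% ± 2.27. H2-Q4 held 9.55% against 4.45%, H2-T23 11.3% against 7.38% and H2-T24 3.37% against 0.191%. A read of the exon 4 stretch printed above can be counted for any of several genes, or for none, and how such reads were shared out in either strain was not tested. When the 7 other genes of the segment that share a window with H2-T23 were added to it, the log2 ratio was 0.14, against 0.96 alone. H2-D1 held most of that sum, 4393 of 6688 normalized reads in BALB/cN and 4607 of 6059 in C57BL/6N corneas. The sum therefore says little about H2-T23. For Gm11127, summed with 8 other genes of the segment, it was 0.15, against at least 4.74 for the gene alone. That sum was again mostly H2-D1, and it left out Gm6034 and Gm19684 on the other strand. For H2-Q4 summed with H2-Q6 alone, without the antisense gene Gm11131, the log2 ratio was 1.45. For H2-T-ps with its partners in the segment it was 3.99. H2-Q4 held 1377 of the 1400 normalized reads of its sum in BALB/cN and 503 of 514 in C57BL/6N corneas. H2-T-ps held 103 of 138 and 6.08 of 9. Each ratio is therefore mostly that of the gene itself and says little about shared reads.

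**Figure D2:**
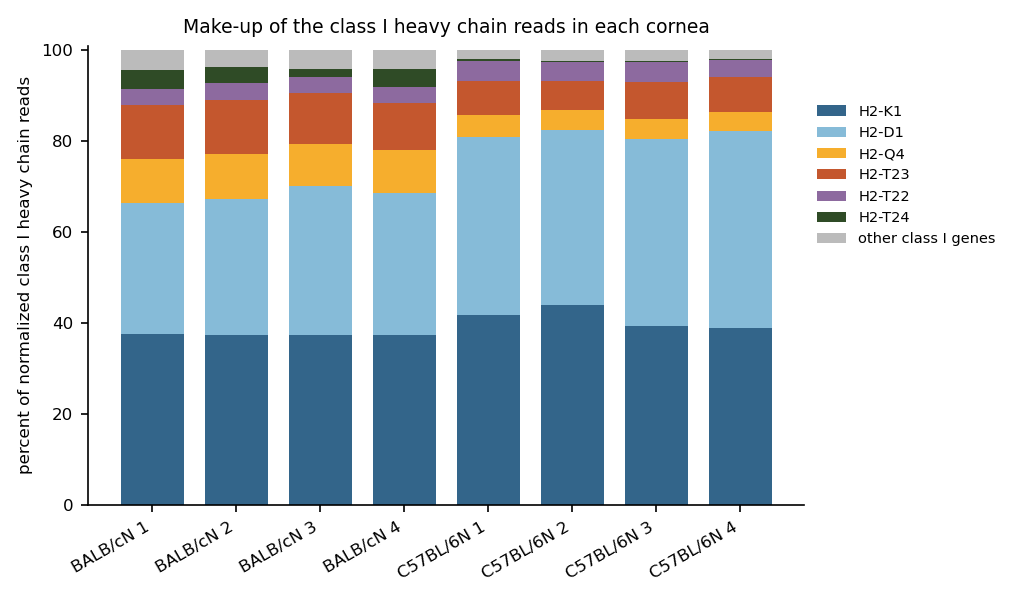
Percent of normalized class I heavy chain reads (y axis) held by 6 genes and by the 17 others together, stacked, in each of the 8 corneas. H2-K1 and H2-D1 fill most of every bar, with H2-D1 at 28.8% to 32.7% in BALB/cN and 38.5% to 43.2% in C57BL/6N corneas, and the bands of H2-Q4, H2-T23 and H2-T24 are wider in BALB/cN.

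B2m, the light chain that every class I molecule needs, had the second largest difference of the set in rlog value. In reads, Gm11127, H2-T24, H2-T-ps, H2-Q2 and Nlrc5, all weakly expressed in C57BL/6N corneas, had larger folds than B2m. Its rlog values were 13.74, 13.28, 13.40 and 13.78 in BALB/cN and 12.48, 12.37, 11.28 and 11.34 in C57BL/6N corneas, a 4.20-fold difference (1.68 ± 0.278, adjusted p = 0.00387). All BALB/cN corneas were above all C57BL/6N corneas, and the C57BL/6N corneas fell into a higher pair (1 and 2) and a lower pair (3 and 4). Per kilobase of exon, B2m had 16985 ± 3661 normalized reads in BALB/cN and 4042 ± 2319 in C57BL/6N corneas, where Calr had 4092 ± 238 and 4972 ± 439, H2-K1 1834 ± 163 and 1577 ± 49.7 and H2-D1 1704 ± 93.7 and 1786 ± 214. The call was lost without any 1 of BALB/cN corneas 1, 3 and 4 or C57BL/6N corneas 3 and 4 (adjusted p of 0.0113 to 0.0175, differences of 1.49 to 1.73) and with robust variances (adjusted p = 0.0224). The voom fit on recovered reads kept the call (adjusted p = 0.00289). B2m lies at chr2:122147686-122153083 on the plus strand.

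The same 2 pairs of C57BL/6N corneas differed in markers of the stroma. The mean rlog value of 7 markers of stromal keratocytes was 13.82, 11.48, 13.10 and 14.00 in the BALB/cN corneas and 13.87, 13.92, 10.94 and 10.88 in the C57BL/6N corneas, while 6 markers of corneal epithelium stayed between 16.91 and 17.15. In whole corneas, fewer cells of a type and less RNA per cell cannot be told apart. B2m and H2-M3 were low in the C57BL/6N corneas low in these markers. BALB/cN cornea 2, also low in them, had the lowest B2m of its strain at 13.28, still above the 12.48 of C57BL/6N cornea 1. With the keratocyte level as a covariate the B2m difference was 1.46 (adjusted p = 1.19e-06), and 14 genes of the set were called, with H2-M3 (0.45) and Psmb8 higher and Calr lower as the additions. Without the 3 corneas low in these markers it was 1.22 (adjusted p = 0.00254), and 10 genes were called, with Nlrc5 lost (adjusted p = 0.0168). H2-K1 was 12.22 and 12.20 in C57BL/6N corneas 3 and 4 and 12.14 and 12.20 in corneas 1 and 2. The refit without these corneas was chosen after seeing the data, as was one without BALB/cN corneas 1 and 4.

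**Figure D3:**
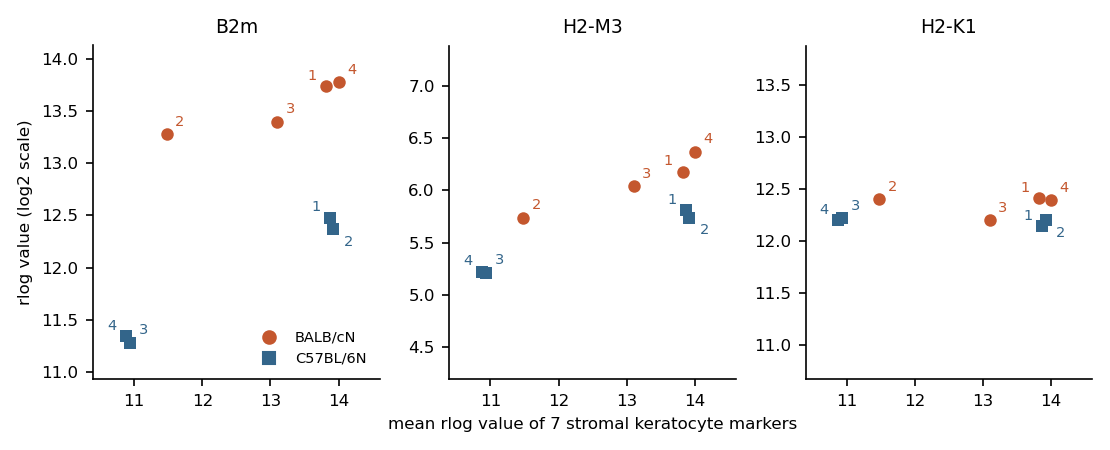
The rlog value (y axis, log2 scale, panels of equal height) of B2m, H2-M3 and H2-K1 in each cornea against the mean rlog value of 7 stromal keratocyte markers (x axis), with points numbered by replicate. B2m and H2-M3 are lowest in C57BL/6N corneas 3 and 4, at 11.28 and 11.34 and at 5.21 and 5.22. All B2m points of BALB/cN lie above all those of C57BL/6N. Marker levels are alike only for BALB/cN corneas 1 and 4 and C57BL/6N corneas 1 and 2, between 13.82 and 14.00.

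Leukocytes carry much class I message per cell. Of 14 leukocyte markers, Cd8a, Ncr1 and Nkg7, which mark cytotoxic T cells and natural killer cells, were listed at 0 in all corneas, and 0 of 10 tested were called by limma or by voom, with 5 and 6 of them at an unadjusted p under 0.05. Of the 10, 8 had a difference above 0 and 2 below, with a median of 0.21. The 5 under 0.05 by limma (Cd68, Cd74, Itgax, Cx3cr1 and Lyz2) were all higher in BALB/cN. The mean rlog value of the leukocyte markers not listed at 0 lay between 5.52 and 5.92 in BALB/cN and between 5.22 and 5.77 in C57BL/6N corneas. With this level as a covariate 13 genes of the set were called, Calr (lower) and Psmb8 (higher) in addition, and the B2m difference was 1.11 (adjusted p = 0.000284). The H2-M3 difference fell from 0.59 to 0.23 (adjusted p = 0.232). BALB/cN corneas 1 and 4 stood apart by markers of lens (7.27 and 6.44, against 4.09 to 4.89 in the other 6) and of pigment cells (10.42 and 11.34, against 6.22 to 8.66). Without these 2 corneas 6 genes stayed called, and B2m (1.47, adjusted p = 0.0901), H2-T23 (0.67, 0.0375), Psmb9 (0.75, 0.0367), Tapbp (0.41, 0.0251) and Nlrc5 (0.96, 0.0117) missed the threshold, with 2 BALB/cN corneas left.

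Of the genes that make and carry peptides, Tap1 and Psmb9 were called. Tap1 (chr17:34187553-34197225, plus strand) had rlog values of 11.28, 11.47, 11.21 and 11.52 in BALB/cN and 10.39, 10.47, 10.57 and 10.58 in C57BL/6N corneas, a 2.26-fold difference (0.87 ± 0.0807, adjusted p = 0.000111). Its partner Tap2, the other chain of the same transporter, had 10.74, 10.77, 10.73 and 10.90 against 10.52, 10.54, 10.67 and 10.77, and was not called (0.16 ± 0.0722, adjusted p = 0.215). The strains were apart in Tap1 and overlapped in Tap2. Tap1 and Psmb9 share 1.93% of the windows of Tap1 and 2.73% of those of Psmb9. Psmb9, Psmb8 and Psmb10 encode the catalytic subunits that replace the constitutive ones in the immunoproteasome. Psmb9 (chr17:34181987-34187764, minus strand) had 559, 526, 502 and 494 reads against 169, 166, 187 and 260, which was 2.22-fold (0.77 ± 0.104, adjusted p = 0.00121). Psmb8 (10.47, 10.62, 10.42 and 10.60 against 10.13, 9.93, 10.17 and 10.28 in rlog value) and Psmb10 (717, 650, 531 and 566 reads against 439, 380, 332 and 352) were also higher in every BALB/cN than in any C57BL/6N cornea, but missed the threshold, at 0.40 (adjusted p = 0.0130) and 0.31 (adjusted p = 0.0198). The 3 together gave 2611 ± 156 normalized reads in BALB/cN and 1700 ± 195 in C57BL/6N corneas, against 5453 ± 466 and 4916 ± 904 for the 3 constitutive subunits Psmb5, Psmb6 and Psmb7. Erap1 overlapped between the strains (10.49, 10.53, 10.42 and 10.36 against 10.21, 10.37, 9.96 and 10.42, difference 0.21, adjusted p = 0.238).

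Of the loading factors, tapasin alone was called. Tapbp (chr17:33915899-33929292, plus strand) had 12.97, 12.97, 12.97 and 12.99 in BALB/cN against 12.53, 12.45, 12.65 and 12.62 in C57BL/6N corneas, a 1.46-fold difference (0.42 ± 0.0518, adjusted p = 0.000747). It was the smallest of the called differences and the most even among BALB/cN corneas, and 14.7% of its windows also lie in the antisense gene Gm19412, which had 3 to 30 reads in any cornea. With each cornea centred on its median, which moved the median of all genes from 0.00771 to -0.0661, the difference was 0.34 (adjusted p = 0.0813). Calr, the chaperone calreticulin, lay the other way, at 13.49, 13.54, 13.51 and 13.63 against 13.77, 13.88, 13.66 and 13.71 with no overlap (-0.21 ± 0.0576, adjusted p = 0.0448). Pdia3 had 12.96, 12.82, 12.96 and 12.98 against 12.94, 13.05, 12.71 and 12.72 (0.07, adjusted p = 0.626), and turned to -0.086 with the leukocyte covariate. Tapbpl, the tapasin relative that edits peptides, had 8.83, 9.11, 8.96 and 8.95 against 8.80, 8.85, 9.05 and 9.03 (0.03, adjusted p = 0.864). Calr and Pdia3 serve glycoproteins in general, and neither was called in either direction.

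Nlrc5, the transactivator, was expressed at a low level. It had 157, 151, 96 and 168 reads in BALB/cN and 15, 32, 11 and 17 in C57BL/6N corneas, a 6.56-fold difference in normalized reads (1.08 ± 0.116, adjusted p = 0.000303). No window of its transcripts is shared with another annotated gene. Per kilobase it had 15.4 ± 3.55 and 2.35 ± 0.986 normalized reads. It lies at chr8:94434356-94527272 on the plus strand. Of the 7 tested genes outside chromosome 17, Nlrc5 and B2m were called, as were 9 of the 22 on chromosome 17.

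**Figure D4:**
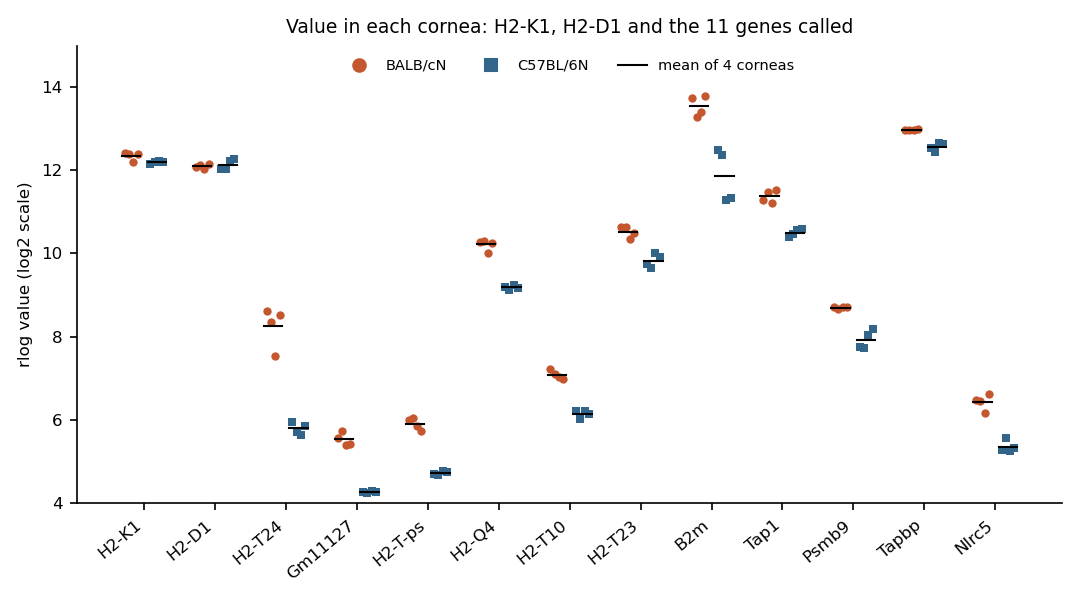
The rlog value (y axis, log2 scale) of H2-K1, H2-D1 and the 11 called genes in each of the 4 BALB/cN and 4 C57BL/6N corneas, with the mean of 4 corneas as a line. The points of the strains overlap in H2-K1 and H2-D1 and are apart in the other 11 genes, and those of B2m spread most in C57BL/6N.

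The promoters of the called genes B2m, Tap1 and Tapbp are shown because an interferon response and Nlrc5 act through short motifs there. The windows are RefSeq promoters on GRCm38.p6, from 250 bases before to 50 after the transcription start, and 25 of the 35 genes had one. Capitals mark matches on either strand to the core of the interferon-stimulated response element (GAAA repeated after any 2 bases), TTCNNNGAA (gamma-activated site), CCAAT (Y box) and TGACG (X2 box). None of these motifs overlaps another in the 3 windows.
B2m (chr2:122147437-122147736, plus strand): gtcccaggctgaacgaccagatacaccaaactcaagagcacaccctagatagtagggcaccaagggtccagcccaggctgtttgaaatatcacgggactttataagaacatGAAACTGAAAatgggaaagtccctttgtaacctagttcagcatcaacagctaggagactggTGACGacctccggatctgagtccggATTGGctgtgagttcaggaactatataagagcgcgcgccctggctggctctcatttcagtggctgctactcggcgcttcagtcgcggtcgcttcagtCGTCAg
Tap1 (chr17:34187306-34187605, plus strand): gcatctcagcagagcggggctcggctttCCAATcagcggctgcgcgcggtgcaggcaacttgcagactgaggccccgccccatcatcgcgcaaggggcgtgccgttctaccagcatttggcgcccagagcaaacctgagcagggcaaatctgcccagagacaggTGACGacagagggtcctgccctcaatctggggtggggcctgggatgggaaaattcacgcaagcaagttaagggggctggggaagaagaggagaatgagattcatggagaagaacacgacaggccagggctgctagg
Tapbp (chr17:33919228-33919527, plus strand): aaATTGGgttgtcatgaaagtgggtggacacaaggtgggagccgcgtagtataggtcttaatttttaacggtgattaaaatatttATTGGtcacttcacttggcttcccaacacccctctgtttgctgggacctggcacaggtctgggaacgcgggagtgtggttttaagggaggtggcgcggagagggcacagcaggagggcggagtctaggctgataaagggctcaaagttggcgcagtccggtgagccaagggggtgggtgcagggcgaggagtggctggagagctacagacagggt

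B2m held the interferon motif at position -139 from the start, an X2 box at -78 and a Y box at -53, with a second X2 match at 45. Tap1 held a Y box at -222 and an X2 box at -86, and Psmb9, which is transcribed from the opposite strand, shares 275 of the 300 bases and both matches, which lie at -8 and -144 from its own start. Tapbp held 2 Y boxes, at -248 and -165. The interferon motif occurred in 3.44% of all 32851 promoters and in 5 of the 25 genes here (B2m, Erap1, Gm11127, H2-T22 and H2-T23). The percentage counts promoters, while a gene was counted if any of its listed promoters matched, so they are not like measures. The same holds for the other motifs. Only exact matches to the stated letters were counted, so a promoter without one may hold another form of the element. The gamma-activated site occurred in 8.30% of all and in 2 here, the Y box in 37.4% and in 19, and the X2 box in 20.8% and in 11. The uncalled H2-K1 and H2-D1 each held Y and X2 boxes, as did the called H2-Q4. The heavy chain genes share ancestry, so their promoters are not separate observations, and the windows are C57BL/6J sequence.

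The called neighbours of the class I genes lay in both directions. Between the start of H2-K2 and the end of H2-M2 (chr17:33974659-37483552), 106 other protein-coding genes were tested and 7 were called (6.60%), 3 higher and 4 lower in BALB/cN. The 106 genes had a median difference of 0.01. The higher ones were Aif1 (1.66), known from macrophages, its neighbour Lst1 (1.33) and Ppp1r18 (0.73). The lower ones were Cdsn (-2.35), the corneodesmosin of cornified epithelium, H2-DMb1 (-0.56), a class II loading factor, Slc44a4 (-0.56) and 2300002M23Rik (-0.27). Cdsn had 13, 37, 39 and 49 reads in BALB/cN and 497, 635, 415 and 345 in C57BL/6N corneas. The difference between the class I genes and their neighbours was not tested. The called count of the neighbours was 4 without any 1 of BALB/cN corneas 1, 3 and 4 or C57BL/6N cornea 3.

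**Figure D5:**
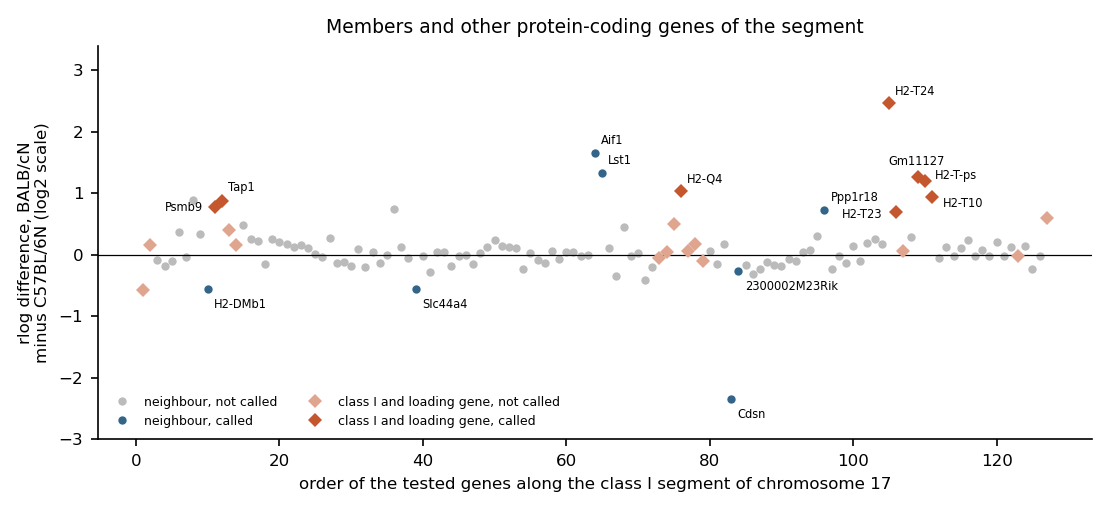
Difference in rlog value (BALB/cN minus C57BL/6N, log2 scale, y axis) of the 127 tested genes of the class I segment in their order along chromosome 17 (x axis), with class I and loading genes as diamonds and other protein-coding genes as circles. Called class I and loading genes all lie above 0, and the group from H2-T24 to H2-T10 has the highest of them at 2.46, while most circles lie near 0.

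Other genes of the pathway were taken from lists drawn up with earlier results of these data known. Of 9 tested genes of the constitutive proteasome and its PA28 activator, 1 was called, Psme2b (0.36, higher). Of 15 chaperones and peptidases of the endoplasmic reticulum and cytosol, 1 was called, Pdia4 (-0.35, lower). Among the factors of class I transcription, Rfxank, a subunit of the X box complex, was called lower (-0.57, adjusted p = 0.00588). Irf1, Rfx5, Nfkb1 and Rela had differences between -0.09 and -0.01 and were not called. Of 6 class I-like genes elsewhere in the genome 1 was called, Mr1 (0.32), which presents vitamin metabolites. None of the 5 tested genes from the list of receptors for class I was called by limma or by voom, with 2 at an unadjusted p under 0.05 in each. Of 18 interferon-stimulated genes 17 were called, all of them higher in BALB/cN corneas (median difference 2.07), led by Rsad2 (4.23), Oas2 (3.85), Cmpk2 (3.66), Usp18 (3.21) and Mx1 (3.04). The median of the class I and loading genes was 0.31, and the difference between the lists was not tested.

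Ligands of the activating receptor NKG2D, relatives of class I that do not bind B2m, included the largest difference towards C57BL/6N in these lists. H60c had 232, 256, 282 and 269 reads in BALB/cN and 4634, 4736, 4265 and 5535 in C57BL/6N corneas, 21.8-fold more in C57BL/6N (-3.25 ± 0.0826, adjusted p = 3.10e-08). The strains were far apart and each was even. Ulbp1 lay the other way with no overlap but was not called (0.38, adjusted p = 0.0330), and 1 of the 5 NKG2D ligands tested was called.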

How the data were processed

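RNA from 4 naive corneas of each strain was sequenced as strand-specific libraries. Per the labels and the study's methods, the authors removed adapters and ribosomal and transfer RNA reads, aligned the rest with TopHat2 2.1.1 to strain versions of GRCm38, counted exon reads with HTSeq 0.7.1 (strand setting not given in the sources used here) and transformed counts with DESeq2 1.30. The authors deposited rlog values on a log2 scale.

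Here limma 3.58.1 (R 4.3.3, variance trend, Benjamini-Hochberg adjustment) compared BALB/cN with C57BL/6N over the 25402 genes that averaged 0 or more, and genes at an adjusted p of 0.01 or less were called. Reads were recovered by inverting the transformation. Among genes left out of that fit, 94.7% of values under a normalized mean of 1000 lay within 0.1 of a whole number, 70.1% between 1000 and 5000 and 25.4% above, so reads of abundant genes are approximate. Normalized reads were divided by size factors. A fold against 0 reads used 3 reads per library. Intervals of differences are 95% intervals from limma. Reads varied between corneas of a strain by more than counting error, with a mean chi-square per gene of 10.8 to 94.6 in C57BL/6N pairs. Windows of 100 bases came from GENCODE M21 transcripts. The scripts were tested on simulated data.

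The genes and lists were chosen with earlier results of these data known. Every gene of the set was eligible to be named. Of the other lists and the neighbours, called genes were named, up to 5 a list by size. Genes named beyond this (H2-Bl, Gm10499, the antisense genes, Ulbp1, the uncalled transcription factors, Klra4 and Klra8) were chosen after their values were seen, and so were all 7 called neighbours together. Alternatives changed the variance model, filter, scaling, null, block, covariates, threshold and corneas used, and fitted voom to recovered reads. Protein sequences were not used here. A result of the transcription list is not reported here.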

Additional observations from a re-analysis of the deposited data

Results flagged for a closer look

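In 56 groups of 4 corneas, 4 had 1 cornea far from its 3 fellows, where chance gives about 2.80 (1 in 20). The value is the gap to the nearest cornea divided by the range of the group. For H2-K1 it was 0.914 in BALB/cN cornea 3, at an rlog value of 12.20 with the nearest at 12.39. For Pdia3 it was 0.844 in BALB/cN cornea 2, at 12.82 with the nearest at 12.96. For H2-Q5, which had 12 reads or fewer in any cornea, it was 0.876 in BALB/cN cornea 1 (1.18, nearest 1.03) and 0.972 in C57BL/6N cornea 4 (1.03, nearest 0.99).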

How the results depend on the processing

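Of 634 refits of single genes, 579 kept their direction and side of the threshold, 30 lost a call, 14 gained one and 11 changed sign, none of these 11 in a called gene. The 1458 calls over all genes became 958 with corneas centred on their median, 2377 with the keratocyte covariate, 2842 at an adjusted p of 0.05, 852 without the 3 corneas low in keratocyte markers and 447 without the 2 high in lens and pigment markers. Leaving out 1 cornea gave 953 to 1163. The 11 called genes became 6 without those 2 corneas and 10 to 12 without 1 cornea. Centring left 8, without H2-T23 (adjusted p = 0.0131), Psmb9 (just above the threshold) and Tapbp (0.0813). With the empirical null all 4 counts were 0 (smallest adjusted p over all genes 0.284, 1478 genes at an unadjusted p under 0.05). The 23 other pathway genes became 13 without the 2 corneas and 17 to 20 without 1. The 7 neighbours became 15 with the keratocyte covariate, 3 without the 2 corneas, 18 at 0.05 and 4 to 7 without 1 cornea, the fewest without BALB/cN cornea 1, 3 or 4 or C57BL/6N cornea 3. The cause was not tested.

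Replicate numbers did not pair the corneas (correlations of 0.31, -0.53, -0.2 and -0.45). With a replicate block 554 genes, 7 of the set (without B2m, H2-T23, Psmb9 and Tapbp) and 3 neighbours were called.

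Differences changed sign for H2-D1 (0.052 with the leukocyte covariate, 0.056 without the 3 corneas), Pdia3 (-0.086 and -0.028), H2-Q1 (-0.031), H2-Q5 (-0.014), H2-T22 (-0.010) and Tapbpl (-0.042) when centred, and Tapbpl with quantile normalization (-0.022), without BALB/cN cornea 2 (-0.017) or without C57BL/6N cornea 1 (-0.012), in a range of -0.017 to 0.076 without 1 cornea. The 2 refits that leave out several corneas were chosen after seeing the data.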

Other observations

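A pair of genes from the list of receptors for class I had 0 reads in all 4 BALB/cN corneas. Whether the BALB/cN genome holds both genes was not examined. Klra4 had 71, 51, 0 and 3 reads in the C57BL/6N corneas (rlog difference -0.54, adjusted p = 0.192), and Klra8 had 89, 60, 3 and 2 (-0.65, adjusted p = 0.166). Both encode Ly49 receptors of natural killer cells, and neither was called by limma or by voom. Their reads lay mostly in C57BL/6N corneas 1 and 2, the pair with the higher stromal keratocyte markers. Cd8a, Ncr1 and Nkg7 were listed at 0 in the same corneas.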
